A study of Mus musculus with 8 samples.

Results

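The transcripts described here are 9 regulators that carry a muscle stem cell towards muscle: the paired-box factors Pax7 and Pax3, the myogenic bHLH factors Myf5, Myod1, Myog and Myf6, the homeobox factor Six4, its cofactor Eya1, and the bHLH repressor Msc (musculin). They were taken by symbol from the deposited expression table, which lists 24630 genes, and all 9 had a row. Pax7 marks the satellite cell, the resident stem cell of skeletal muscle, and Pax3 is its close relative. Myf5 and MyoD (Myod1) commit cells to the muscle lineage, myogenin (Myog) drives their terminal differentiation, and Myf6 (MRF4) acts late and in muscle fibres. Six4 and its Eya cofactors work together upstream of these bHLH genes, while musculin binds the same E-box motifs as MyoD and represses muscle genes.

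The study set 4 old male C57BL/6 mice, aged 22 months, against 4 young male C57BL/6 mice, aged 4 months. All animals were unmodified as far as the labels say, and each library came from the muscle stem cells of 1 animal. Cells of the limb muscles were sorted as CD45-, CD31-, Sca1- and VCAM+ and frozen without culture, and RNA was copied from its poly(A) tail, so each value is an average over all cells that passed this gate. The comparison asks how these transcripts differ with age in freshly isolated cells, and in bulk RNA fewer cells that use a gene and less RNA per cell cannot be told apart.

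Values are RPKM, the reads of a gene divided by its length in kilobases and by the library size in M (the SI prefix mega), and are given on a pair of scales. On the deposited scale the authors' adjusted library sizes stood at 0.678 to 0.849 times the reads in genes of the old libraries and at 1.14 to 1.64 times those of the young, which places most expressed genes higher in the old group. On library totals each value is a share of the library's reads in genes. Over the 5703 genes whose mean RPKM reached 5, the median log2 fold change was 0.64 in the deposited values, against -0.01 on library totals, and a change is read against that median. Old libraries held 20.1 to 24.9 M reads in genes and young libraries 1.91 to 6.56 M, so depth and age cannot be told apart. Genes of receptor families that are silent in muscle (1411 genes) were averaged on library totals. They stood at 0.034 to 0.052 RPKM in old libraries and at 0.21 to 0.996 RPKM in young libraries. This low-level signal is set beside Pax3, Myf6, Six4, Myog, Tcf3, Tcf12 and Id4. A gene is called where the Benjamini-Hochberg adjusted p of limma is under 0.05.

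The promoters of a pair of members that stand at opposite ends of this sequence of events are shown because the report turns on both, Myog as the differentiation factor and Pax7 as the stem cell factor. The sequences are RefSeq's on GRCm38.p6, from 250 bases before to 50 bases after the start of transcription, and the table used here held promoters for 4 of the 9 members. Capitals mark matches to CANNTG (the E-box, bound by myogenic bHLH factors), TCAGGTT (the MEF3 core, bound by Six4) and CTANNNNTA (the MEF2 core), searched on both strands. The first line is Myog at chr1:134289754-134290053 on the plus strand, and the second is Pax7 at chr4:139832919-139833218 on the minus strand.
Myog: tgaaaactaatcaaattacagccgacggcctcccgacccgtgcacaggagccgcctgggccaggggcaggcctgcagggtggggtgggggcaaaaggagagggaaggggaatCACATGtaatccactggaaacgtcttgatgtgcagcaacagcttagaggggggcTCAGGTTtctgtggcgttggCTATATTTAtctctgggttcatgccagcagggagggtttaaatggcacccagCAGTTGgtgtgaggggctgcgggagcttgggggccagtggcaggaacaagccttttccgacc
Pax7: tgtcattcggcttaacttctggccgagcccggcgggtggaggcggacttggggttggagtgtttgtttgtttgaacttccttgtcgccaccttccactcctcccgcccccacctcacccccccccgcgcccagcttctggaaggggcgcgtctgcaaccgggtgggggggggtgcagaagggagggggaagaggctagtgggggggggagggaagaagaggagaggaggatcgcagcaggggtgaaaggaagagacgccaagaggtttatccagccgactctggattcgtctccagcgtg
The Myog window held E-boxes at -138 and -12, the MEF3 core at -84 and the MEF2 core at -64, counted from the start of transcription, and the matches do not overlap. The Pax7 window held none of these letters, which says nothing about binding elsewhere. Among 32817 mouse promoters of the same length 72.3% held CANNTG, 4.07% held TCAGGTT, 21.05% held CTANNNNTA and 0.747% held all 3 motifs. Each match is a description of letters, not a shown binding site.

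Across the 8 libraries the 9 transcripts spanned a wide range of levels. Averaged over all libraries on the deposited scale, Myod1 stood at 699 RPKM, Myf5 at 185, Msc at 50.4, Pax7 at 13.8, Eya1 at 6.03, Myog at 5.90, Myf6 at 2.46, Pax3 at 2.31 and Six4 at 1.83 RPKM. Myod1 exceeded Myf5 in every library, and the ranges of Myf5, Msc, Pax7 and Eya1 over the libraries did not overlap each other in that order. Myog overlapped Pax7, Eya1, Myf6, Pax3 and Six4, and the last 3 of these overlapped one another, so the order of Myog against these genes, and of those 3 among themselves, is not distinguished. The 6 members whose mean RPKM reached 5 were tested among the 5703 genes named above. Pax3, Myf6 and Six4 lay below that mean and were tested in the same model among the 11096 genes whose mean reached 1 RPKM, where the median log2 fold change was -0.19 on library totals, against 0.36 in the deposited values.

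**Figure D1:**
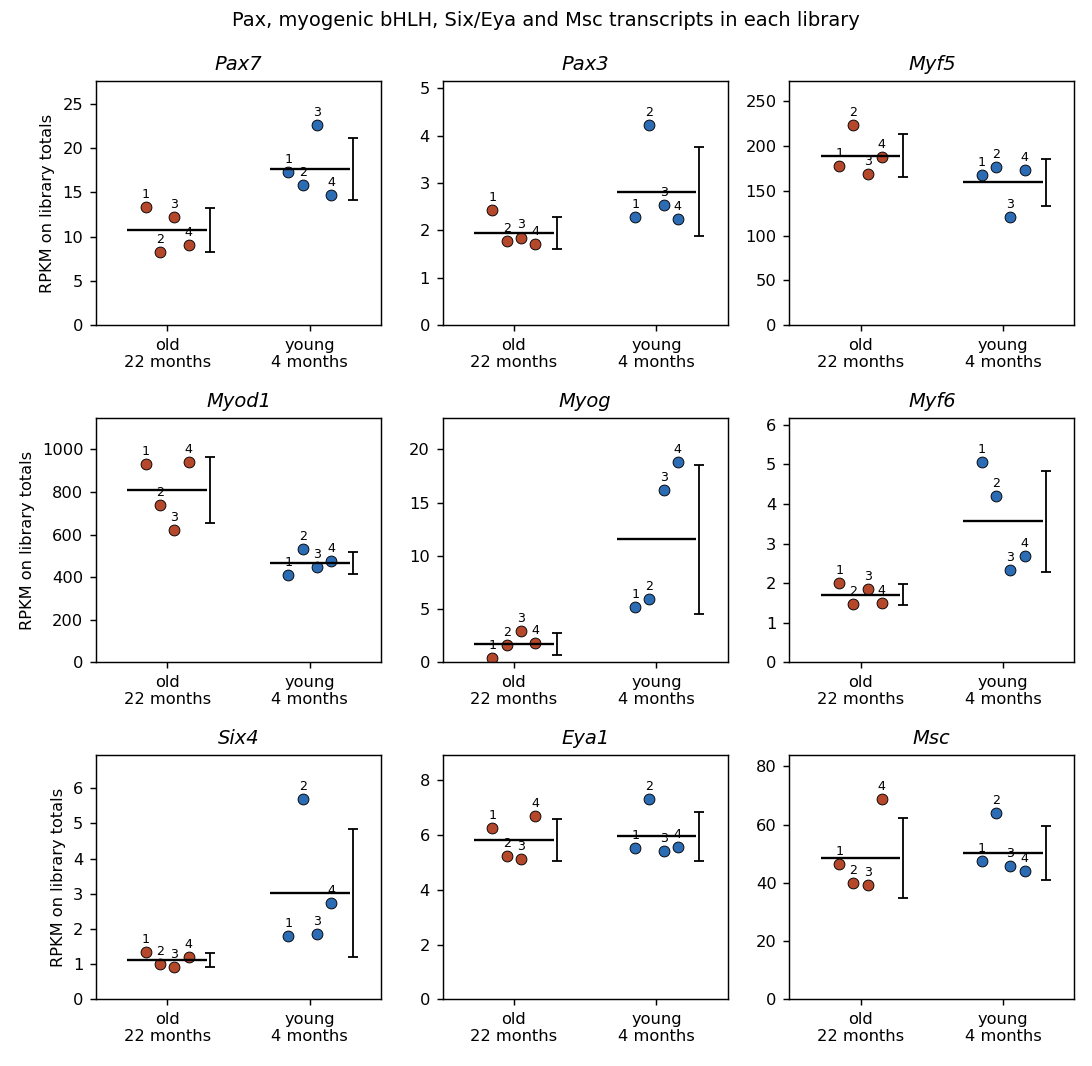
Each panel plots 1 gene, with RPKM on library totals on the y axis and the old (22 months) and young (4 months) animals on the x axis. Points are single libraries with their replicate number, the horizontal line is the group mean and the bar its SD (n = 4). Myod1 is higher in all 4 old libraries than in any young library, Pax7, Myog, Myf6 and Six4 are lower in all 4, and Pax3, Myf5, Eya1 and Msc overlap. Of all genes at or above 5 RPKM, 13.8% were higher and 13.4% lower in every old library than in any young library. At or above 1 RPKM, the minimum for Pax3, Myf6 and Six4, these shares were 7.82% and 24.8%.

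On library totals 5 of the 9 members were called: Myod1 was higher in old animals, and Pax7, Myog, Myf6 and Six4 were lower. In the deposited values 5 of the 9 were called as well, with Myod1, Myf5, Eya1 and Msc higher and Myog lower. In these main fits Myod1 and Myog are thus the only members called in the same direction on both scales. Among all genes at or above 5 RPKM, 12.3% were called higher and 12.7% lower on library totals, against 68.1% higher and 1.12% lower on the deposited scale. At or above 1 RPKM these shares were 7.27% higher and 22.3% lower on library totals, and 42.1% higher and 5.34% lower on the deposited scale. The calls of Myf5, Eya1 and Msc as higher on the deposited scale therefore fall in a class that holds most genes of that level, while lower calls there are few. In the fit that held all 9 members, their median log2 fold change was -0.35 on library totals, beside -0.19 for all genes, and 0.14 as deposited, beside 0.36.

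**Figure D2:**
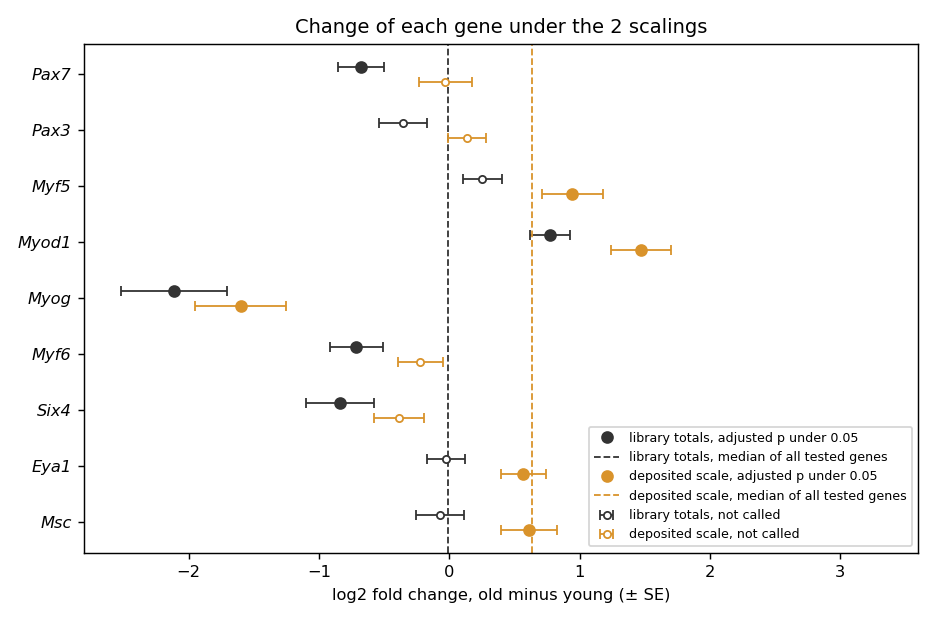
The x axis is the log2 fold change, old minus young, with its SE, for the 9 genes on the y axis, with library totals in black and the deposited scale in orange. Filled points passed an adjusted p of 0.05 and open points did not, and the dashed lines at -0.01 and 0.64 are the medians of the 5703 genes tested on each scale. Pax3, Myf6 and Six4 come from the fit at or above 1 RPKM, whose medians of -0.19 and 0.36 are not drawn. Myod1 lies to the right and Myog to the left of the dashed lines on both scales, and Eya1 and Msc lie close to them.

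Pax7 (chr4:139737062-139833528, minus strand, GRCm38, protein coding, up to 9 exons) made up a smaller share of reads in old animals. On library totals it had 13.4, 8.22, 12.2 and 9.05 RPKM in old libraries 1 to 4 and 17.4, 15.9, 22.6 and 14.7 RPKM in young libraries 1 to 4. All 4 old libraries lay below the lowest young library, with young library 3 the highest. The mean was 10.7 ± 2.47 RPKM in old animals, against 17.6 ± 3.50 RPKM in young ones (SD, n = 4 each), and the log2 fold change was -0.68 ± 0.18 (SE, adjusted p = 0.0166). Counted from the highest RPKM, Pax7 ranked between 2977 and 3975 in old libraries and between 1912 and 2722 in young libraries. In the deposited values the groups overlapped, with 15.8, 12.1, 14.7 and 11.4 RPKM in old libraries and 14.2, 9.71, 19.9 and 12.7 RPKM in young libraries. The log2 fold change there was -0.03 ± 0.20 (adjusted p = 0.895), so the direction of Pax7 is read relative to the other transcripts and not as an absolute level. The call on library totals was lost without old library 4 (-0.61, adjusted p = 0.0525) and without young libraries 1 and 2 (-0.74, adjusted p = 0.0543), the libraries with the fewest reads.

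Pax3 (chr1:78101267-78197134, minus strand), which specifies muscle progenitors in the embryo and persists in satellite cells of some adult muscles, was not called. On library totals it had 2.44, 1.78, 1.85 and 1.72 RPKM in old libraries and 2.28, 4.23, 2.54 and 2.24 RPKM in young libraries. The groups overlapped through old library 1, and young library 2, the one with the fewest reads, stood apart above the others. Silent receptor genes averaged 0.996 RPKM in that library, the highest of the 8. Old against young, the log2 fold change was -0.35 ± 0.18 (adjusted p = 0.165) on library totals, with the opposite sign in the deposited values, 0.14 ± 0.14 (adjusted p = 0.451). Pax7 made up 82.2% to 86.9% of the summed RPKM of both genes in old libraries and 79.0% to 89.9% in young libraries. The 7 other Pax genes of the mouse averaged 0.0152 to 0.128 RPKM in old animals and 0.22 to 0.897 RPKM in young ones as deposited.

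Myod1 (chr7:46376474-46379099, plus strand, up to 3 exons), the gene of MyoD, was higher in old animals on both scales. On library totals it had 929.9, 741, 624 and 940.3 RPKM in old libraries and 411, 534, 449.7 and 475 RPKM in young libraries. Every old library exceeded every young one, and the lowest old value, in library 3, lay above the highest young one, in library 2. The mean was 809 ± 154 RPKM in old animals, against 468 ± 51.6 RPKM in young ones (SD, n = 4 each), with a log2 fold change of 0.78 ± 0.16 (adjusted p = 0.0055). As deposited, old libraries had 1095, 1094, 748 and 1184 RPKM and young libraries 336, 327, 396 and 413 RPKM. The log2 fold change there was 1.47 ± 0.23 (adjusted p = 3.29e-05), above the median of 0.64 over all tested genes. Myod1 was among the most abundant transcripts of every library, at rank 33 to 51 in old and 53 to 83 in young libraries. It remained called in all 18 alternative settings on each scale, with log2 fold changes of 0.70 to 0.89 for library totals, against 1.33 to 1.62 for the deposited values.

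Myf5 (chr10:107482908-107486134, minus strand), the earliest bHLH factor of the lineage and already transcribed in most quiescent satellite cells, was called on the deposited scale only. On library totals it had 177, 223, 169 and 188 RPKM in old libraries and 168, 176, 121 and 174 RPKM in young libraries. The groups overlapped, with old library 2 the highest and young library 3 the lowest. Its log2 fold change was 0.25 ± 0.15 (adjusted p = 0.233) on library totals. As deposited, the old libraries, with 209, 329, 203 and 236 RPKM, all lay above the young, with 137, 108, 106 and 151 RPKM. The same held there for 61.2% of all genes at or above 5 RPKM. The log2 fold change of Myf5 on the deposited scale was 0.95 ± 0.23 (adjusted p = 0.0015), against the median of 0.64. The change of Myod1 was not tested against that of Myf5. Within a library the ratio of Myod1 to Myf5 was 5.25, 3.32, 3.69 and 5.01 in old libraries and 2.45, 3.04, 3.73 and 2.74 in young libraries, which overlap.

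Myog (chr1:134289989-134292548, plus strand, up to 3 exons), whose promoter with its E-boxes, MEF3 and MEF2 cores is printed above, was lower in old animals on both scales. On library totals it had 0.433, 1.59, 2.98 and 1.83 RPKM in old libraries and 5.21, 5.95, 16.2 and 18.8 RPKM in young libraries. All old libraries lay below all young ones, and within the young group libraries 1 and 2 lay well below libraries 3 and 4. The reads behind these values were few, with 13, 59, 102 and 57 reads in old and 21, 17, 159 and 160 reads in young libraries. The mean was 1.71 ± 1.05 RPKM in old animals, against 11.5 ± 6.98 RPKM in young ones (SD, n = 4 each). Its log2 fold change was -2.11 ± 0.41 (adjusted p = 0.0047) on library totals, against -1.60 ± 0.35 (adjusted p = 0.00057) on the deposited scale. Without young libraries 1 and 2, where Myog was lower, these were -2.86 and -2.46, and a fit to the recovered reads with limma-voom gave -3.00 and -2.26. Myog ranked between 6833 and 12202 in old libraries and between 2175 and 6111 in young libraries. Silent receptor genes averaged 0.21 to 0.996 RPKM in young libraries and 0.034 to 0.052 RPKM in old libraries on library totals. The part of such low-level signal in the Myog values was not tested.

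Myf6 (chr10:107492853-107494737, minus strand), a neighbour of Myf5 that lies 6718 bases away on the same strand, was lower in old animals on library totals. It had 2.00, 1.48, 1.86 and 1.502 RPKM in old libraries and 5.06, 4.19, 2.32 and 2.68 RPKM in young libraries, so the groups did not overlap and young libraries 1 and 2 were the highest. Those 4 young values rest on 17, 10, 19 and 19 reads, while the old values rest on 50, 46, 53 and 39. Silent receptor genes averaged 0.413 RPKM in young library 1 and 0.996 RPKM in young library 2 on library totals, beside at most 0.052 RPKM in old libraries. For Myf6 the log2 fold change was -0.71 ± 0.20 (adjusted p = 0.0242) on library totals, against -0.22 ± 0.17 (adjusted p = 0.301) on the deposited scale. Thinning all libraries to the reads of the shallowest ended the call (-0.79, adjusted p = 0.157), as did the fits without old library 2 (adjusted p = 0.0666), without old library 4 (0.0633), without young library 1 (-0.56, adjusted p = 0.0599) and without young libraries 1 and 2 (-0.37, adjusted p = 0.127). The length behind its RPKM differed from that of GENCODE M21, unlike the other 8 members, so its level against other genes is uncertain. Summed muscle fibre markers (13 genes, none without reads), which mark the tissue where Myf6 is known to be high, took 117 to 728 CPM (counts per M reads in genes) in old and 337 to 711 CPM in young libraries, and their part in the Myf6 values was not tested.

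Six4 (chr12:73099609-73113456, minus strand), which takes part in activating Myf5, Myod1 and Myog genes in the embryo, was called lower in old animals on library totals. It had 1.34, 1.00, 0.914 and 1.20 RPKM in old libraries and 1.81, 5.68, 1.85 and 2.75 RPKM in young libraries. The groups did not overlap, and young library 2, which also had the highest mean over silent receptor genes, was far above the rest. In that library silent receptor genes averaged 0.996 RPKM. For Six4 the log2 fold change was -0.84 ± 0.26 (adjusted p = 0.0335) on library totals, against -0.39 ± 0.19 (adjusted p = 0.113) on the deposited scale. The call was lost without old library 1 (adjusted p = 0.053), 2 (0.0813), 3 (0.0716) or 4 (0.0682) and without young library 4 (0.0636), but not without young library 2. With reads thinned to equal totals Six4 was called lower on library totals (-1.06, adjusted p = 0.0308) and on the deposited scale (-0.63, adjusted p = 0.0344).

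Eya1 (chr1:14168954-14310235, minus strand), a phosphatase and coactivator of Six4, did not pass on library totals. It had 6.25, 5.23, 5.12 and 6.70 RPKM in old libraries and 5.51, 7.30, 5.43 and 5.56 RPKM in young libraries, which overlap almost fully. The log2 fold change was -0.03 ± 0.15 (adjusted p = 0.916), and it changed sign in 5 of 17 alternative settings. As deposited it was 0.57 ± 0.17 (adjusted p = 0.006), close to the median of 0.64 over all genes, and the groups did not overlap. There 61.2% of all genes at or above 5 RPKM were likewise higher in every old library than in any young library. Eya2, Eya3 and Eya4, at lower levels, were not called on library totals, with log2 fold changes of 0.49 ± 0.20, -0.10 ± 0.16 and -0.27 ± 0.21. On the deposited scale Eya2 was called higher (0.94 ± 0.18, adjusted p = 0.0017), as was Eya3 (0.39 ± 0.15, adjusted p = 0.0457, opposite in sign to library totals), and Eya4 was not (0.29 ± 0.22, also opposite in sign, adjusted p = 0.28). The call of Eya3 was lost in 11 of 16 alternative settings (adjusted p up to 0.304).

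Msc (chr1:14753346-14755992, minus strand), the repressor, behaved like Eya1. It had 46.4, 40.0, 39.2 and 68.7 RPKM in old libraries and 47.4, 64.1, 45.7 and 44.2 RPKM in young libraries on library totals. The highest value of each group, old library 4 and young library 2, lay far above the other 3, and the groups overlapped. The log2 fold change was -0.07 ± 0.19 (adjusted p = 0.804) on library totals, changing sign in 5 of 18 alternative settings, against 0.61 ± 0.21 (adjusted p = 0.0157) on the deposited scale. The deposited-scale call was lost without old library 4 (0.44, adjusted p = 0.0948). Msc shares exon bases with the antisense gene Gm9947, and reads from the 2 strands cannot be told apart unless the counting used strand, which the labels do not state.

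Ratios of 2 transcripts within a library do not depend on the scale. The ratio of Myod1 to Pax7 was 69.5, 90.2, 51.0 and 104 in old libraries and 23.7, 33.6, 19.9 and 32.4 in young libraries, and the difference of the mean log2 ratios was 1.504. Every old library exceeded every young one. The ratio of Myf5 to Pax7 behaved likewise, with 13.2, 27.2, 13.8 and 20.7 in old and 9.67, 11.1, 5.34 and 11.8 in young libraries, a log2 difference of 0.98. Of 5702 genes at or above 5 RPKM, 43.7% had a ratio to Pax7 that was higher in every old library, so a higher ratio to Pax7 was common. Pax3, Six4 and Eya1 overlapped between the groups when set against Pax7.

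Relative to Myod1, Myog and Msc stood lower in old animals. The ratio of Myog to Myod1 was 0.00047, 0.00214, 0.00478 and 0.00195 in old libraries and 0.0127, 0.0111, 0.0361 and 0.0396 in young libraries, a log2 difference of -3.60. No old ratio reached any young one. The ratio of Msc to Myod1 was 0.0499, 0.0539, 0.0628 and 0.0731 in old libraries and 0.115, 0.12, 0.102 and 0.0931 in young libraries, a log2 difference of -0.85. A ratio to Myod1 lower in every old library was seen in 58.3% of 5702 genes. The ratio of Myf6 to its neighbour Myf5 was 0.0113, 0.00664, 0.011 and 0.008 in old libraries and 0.0301, 0.0238, 0.0192 and 0.0154 in young libraries, a log2 difference of -1.25, and 30.3% of 11095 genes at or above 1 RPKM were likewise lower in every old library relative to Myf5. Of the summed RPKM of the 4 myogenic bHLH genes, Myod1 made up 76.6% to 83.8% in old and 69.8% to 76.4% in young libraries, and Myog 0.039% to 0.374% in old and 0.826% to 2.81% in young libraries.

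**Figure D3:**
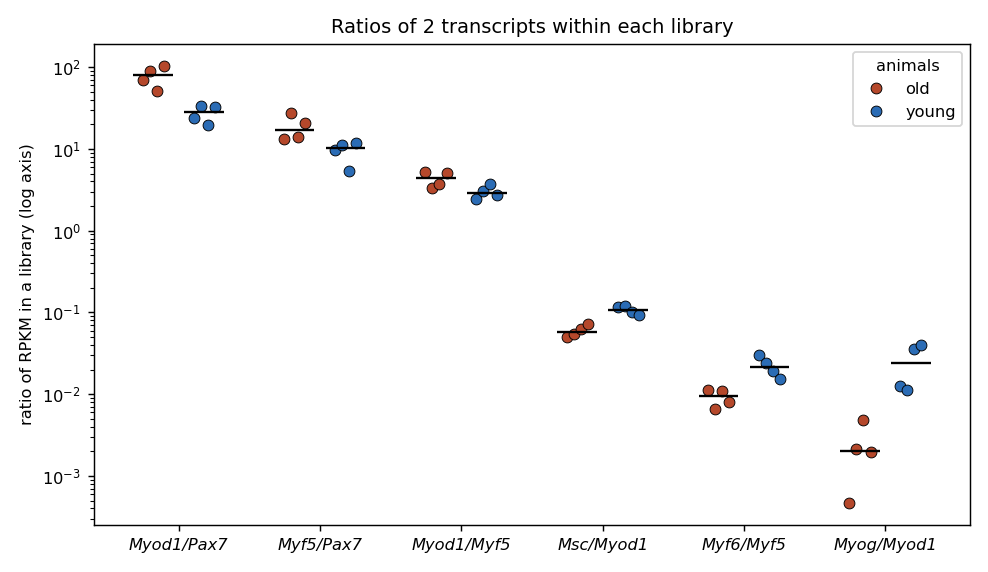
The y axis, on a log scale, gives the ratio of the RPKM of 2 genes within 1 library, and the x axis names the pair, with old animals (red) left of young animals (blue). Points are libraries and lines are group medians (n = 4 each). The groups are separate for Myod1/Pax7, Myf5/Pax7, Msc/Myod1, Myf6/Myf5 and Myog/Myod1 and overlap for Myod1/Myf5.

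Over the 8 libraries, on log2(RPKM + 1) of library totals, the members fell into patterns that are given as descriptions, since the points share age group and depth. Pax7 ran opposite to Myf5 (Pearson r = -0.88) and to Myod1 (r = -0.76), and Myod1 opposite to Myog (r = -0.84). Pax3 ran with Six4 (r = 0.91) and Eya1 with Msc (r = 0.91), and in both pairs young library 2 was the highest or second highest library. The genes outside the list most like Pax7 were Tsc2, which restrains the growth kinase mTORC1 (r = 0.996), the TGF-beta co-receptor Tgfbr3 (r = 0.984) and the cyclin Ccnd3 (r = 0.98). Those most like Myod1 were the AP-1 subunit Fosl1 (r = 0.99), the nucleotide synthesis enzyme Impdh1 (r = 0.982) and the neurotrophic factor Gdnf (r = 0.979). As deposited, Fosl1 averaged 444 RPKM in old animals, against 145 RPKM in young ones, and Gdnf 26.3 RPKM in old animals, against 6.18 RPKM in young ones. Myf5 was most like Rbmxl1 (r = 0.978), Ugp2 (r = 0.959) and Morf4l1 (r = 0.951), and Myog most like Glipr2 (r = 0.979), Mlx (r = 0.973) and Dcakd (r = 0.971).

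None of the 6 Mef2, E protein and Id genes at or above 5 RPKM was called by limma on library totals, where 12.3% of all genes were called higher and 12.7% lower. Mef2 proteins, which act with MyoD and myogenin on muscle promoters, had 2 of 4 genes tested. On library totals limma and limma-voom called 0 of them, and 1 had an unadjusted p under 0.05, with -0.23 ± 0.17 for Mef2a (adjusted p = 0.34) and 0.30 ± 0.13 for Mef2d (adjusted p = 0.118). In the deposited values Mef2a was of opposite sign (0.36, adjusted p = 0.0632) and Mef2d was called higher (0.95, adjusted p = 0.000184). Mef2c, tested at the minimum of 1 RPKM, was not called either (-0.65 ± 0.24, adjusted p = 0.0591). E proteins are the dimer partners of MyoD, and Id proteins tie up E proteins: 4 of these 7 genes were tested, limma and limma-voom called 0 on library totals, and 1 had an unadjusted p under 0.05. Their log2 fold changes on library totals were -0.17 for Tcf4, -0.36 for Id1, -0.32 for Id2 and -0.23 for Id3. All 4 were positive on the deposited scale but below the median of 0.64 over all tested genes. Tcf4 was called there (0.49, adjusted p = 0.0187), where 68.1% of all genes were called higher. That call was lost without young libraries 1 and 2 (adjusted p = 0.0702). At the minimum of 1 RPKM all 7 were tested, and 22.3% of all genes were called lower on library totals. Tcf3, Tcf12 and Id4 were called lower there, with -1.03 ± 0.21, -0.45 ± 0.15 and -1.25 ± 0.28. Of these, Tcf3 and Id4 were called lower on the deposited scale as well (-0.60, lost without young libraries 1 and 2 with adjusted p = 0.0717, and -0.81), and Tcf12 was of opposite sign and not called (0.10). The call of Tcf12 was lost without any one library except young library 3 (adjusted p = 0.0666 to 0.126). On library totals Tcf3, Tcf12 and Id4 were each highest in young library 2. Silent receptor genes averaged 0.996 RPKM in that library, beside at most 0.052 RPKM in old libraries. The part of such low-level signal in the values of Tcf3, Tcf12 and Id4 was not tested.

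Among repressors and antagonists of the myogenic bHLH factors, 6 of 15 genes were tested. On library totals 3 were called lower, beside 12.7% of all genes, with a list median of -0.44 against -0.01 for all genes. In the deposited values 68.1% of all genes were called higher and 1.12% lower. Of this list 0 were called lower there by limma and 2 higher, Zeb1 (0.57, adjusted p = 0.0088) and Zeb2 (0.82, adjusted p = 0.00041), and the list median was 0.24 against 0.64. The Notch targets Hey1 (-1.03 ± 0.15, adjusted p = 0.0014) and Heyl (-0.68 ± 0.22, adjusted p = 0.045), which maintain satellite cell quiescence, were 2 of the 3 called lower on library totals. On the deposited scale neither was called (-0.39 and, opposite in sign, 0.01). Hey1 was called lower there without old library 1 (-0.49, adjusted p = 0.0436), without young library 2 (-0.51, adjusted p = 0.0107) or without young libraries 1 and 2 (-0.57, adjusted p = 0.0213). The third was Bhlhe40 (-0.66 ± 0.20, adjusted p = 0.0326), also of opposite sign and not called on the deposited scale (0.03). The call of Heyl was lost without any one library except young library 2 (adjusted p = 0.051 to 0.108), and that of Bhlhe40 without old library 2, old library 4, young library 1, young library 3 or young library 4 (0.0551 to 0.0865). Of 23 cofactors of Pax7 and MyoD, 11 were tested. On library totals 1 of them was called, where 12.3% of all genes were called higher and 12.7% lower. It was the histone methyltransferase subunit Wdr5, higher with both scalings (0.65 ± 0.14, adjusted p = 0.009, for library totals, and 1.31 for the deposited values). In the deposited values all 11 tested cofactors were called higher, beside 68.1% of all genes.

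Of 26 genes listed as early differentiation genes, several of them known targets of MyoD and myogenin, 9 were tested. On library totals 5 were called lower in old animals, beside 12.7% of all genes, and 4 were not called. A role in differentiation was not tested for any gene of the list, Megf10 included. The list median was -0.77 against -0.01 for all genes. The acetylcholine receptor subunit Chrna1 had 10.4, 14.4, 13.8 and 11.8 RPKM in old libraries and 29.5, 16.5, 30.0 and 41.1 RPKM in young libraries, with no overlap and a log2 fold change of -1.10 ± 0.23 (adjusted p = 0.0064). Rapsn, which anchors that receptor, changed by -0.93 ± 0.14 (adjusted p = 0.0016), and Megf10, Jsrp1 and Tnnt1 by -0.86, -0.77 and -0.75. On the deposited scale 68.1% of all genes were called higher and 1.12% lower. Of the list 1 gene was called there, Musk, which was higher (1.37, adjusted p = 0.00052, against 0.68 and adjusted p = 0.0658 on library totals). The 5 genes called lower on library totals had the same sign there without being called, with -0.44 for Chrna1 and -0.25 for Rapsn. Without young library 2, Chrna1 (-0.79, adjusted p = 0.00211), Rapsn (-0.46, adjusted p = 0.0312) and Megf10 (-0.47, adjusted p = 0.0423) were called lower there too. Musk was called on library totals without old library 1 (0.82, adjusted p = 0.0409) or young library 1 (0.85, adjusted p = 0.0379).

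**Figure D4:**
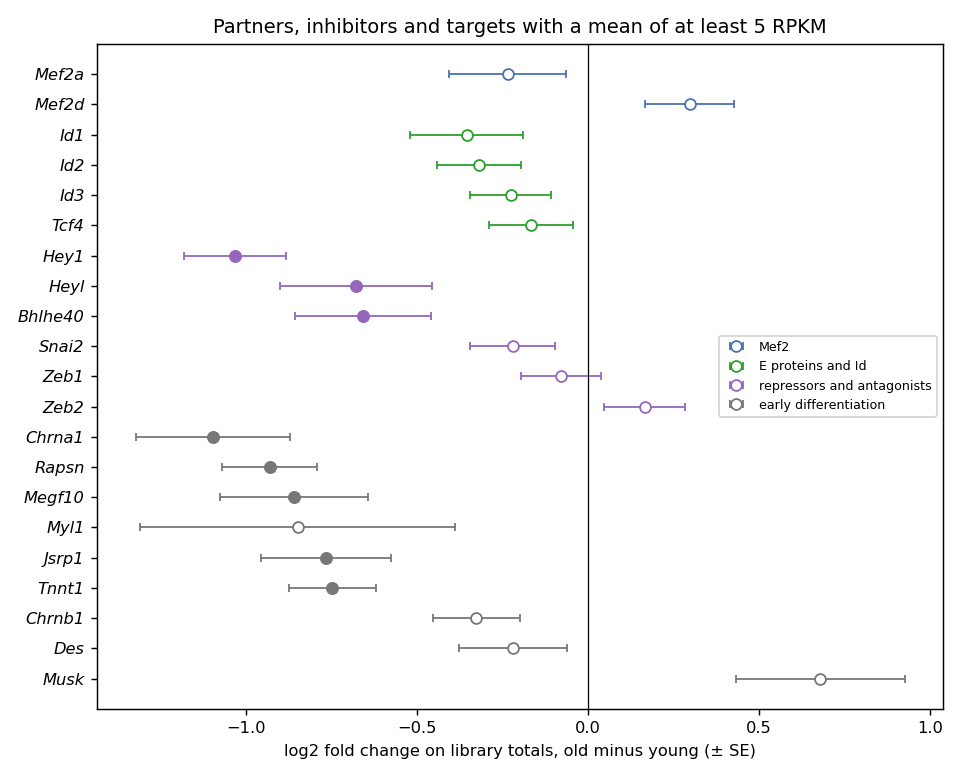
The x axis is the log2 fold change on library totals, old minus young, with its SE, for genes of 4 related lists (colours) at or above 5 RPKM. Filled points passed an adjusted p of 0.05 and open points did not, and all filled points lie below 0.

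The sorted cells carried the markers of muscle stem cells in both groups, with 10 markers summing to 8358 to 11852 CPM in old and 7701 to 11272 CPM in young libraries. The most abundant of the 10 were Sdc4 and Vcam1, with means of 1854 and 417 RPKM as deposited. The sum therefore gives them more weight than Pax7, at 13.8 RPKM. Of 8 stem cell markers besides Pax7 and Myf5, all were tested. On library totals, where 12.3% of all genes were called higher and 12.7% lower, 1 was called higher and 3 lower. These were Vcam1, the molecule used for the sort, at 0.79 ± 0.20 (adjusted p = 0.0158), Calcr, the calcitonin receptor, at -1.52 ± 0.16, Fgfr4 at -0.86 ± 0.10 and Cdh15, M-cadherin, at -0.86 ± 0.16. As deposited, 3 of the 8 were called higher and 1 lower, beside 68.1% and 1.12% of all genes. These were Vcam1 (1.48) and Calcr (-0.85) in the same direction as before, and Sdc4 (0.55, adjusted p = 0.0471) and Cxcr4 (0.61, adjusted p = 0.0042), which were not called on library totals. Fgfr4 and Cdh15 were not called there (adjusted p = 0.44 and 0.456). Without young libraries 1 and 2 the calls on library totals of Vcam1 (0.65, adjusted p = 0.11), Col1a1 (-1.63, adjusted p = 0.0565) and Atp2a1 (-1.11, adjusted p = 0.0572) were lost. Markers of tenocytes, the cells of tendon, were higher in old animals. Summed over 7 tenocyte markers, none of them without reads, old libraries held 1731 to 5244 CPM and young libraries 652 to 1011 CPM, and all 6 tested genes were called higher, led by Thbs4 (2.12 ± 0.32) and Fmod (1.77 ± 0.30). The 8 endothelial markers summed to 166 to 409 CPM in old and 422 to 479 CPM in young libraries, which did not overlap. On library totals limma called 0 of 5 tested genes, limma-voom called 1, and 4 had an unadjusted p under 0.05. At the minimum of 1 RPKM all 8 were tested, and 3 were called lower on library totals, beside 22.3% of all genes. These were Kdr (adjusted p = 0.0104), Egfl7 (0.0154) and Emcn (0.049), and on the deposited scale Kdr alone was called lower (0.0193). Fibro-adipogenic markers (7 genes) summed to 1115 to 2681 CPM in old and 1285 to 1969 CPM in young libraries, with Dcn called higher and Col1a1 lower; the call of Dcn was lost without old library 1, old library 4, young library 1 or young library 4 (adjusted p = 0.0506 to 0.0633). Pericyte and smooth muscle markers (6 genes) summed to 319 to 803 CPM in old and 562 to 760 CPM in young libraries, with Acta2 called lower. Leukocyte markers (8 genes) summed to 26.5 to 69.3 CPM in old and 54.9 to 117 CPM in young libraries, and Schwann markers (4 genes) to 31.3 to 62.8 CPM in old and 37.6 to 44.5 CPM in young libraries. Of 6 tested fibre markers Atp2a1 was called lower (-1.02). The part of other cells in the values of the 9 regulators was not tested.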

How the data were processed

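Poly(A) RNA of sorted muscle stem cells was sequenced from 4 old and 4 young mice, 1 library per animal, in 101-base paired reads, per the labels' protocols. The authors deposited 1 table of RPKM for 24630 genes. The submitters' processing notes name the builds GRCm38 and mm10 and the tools STAR, Subread's featureCounts, edgeR and Trim Galore. Their versions and the annotation were not given in the sources used here.

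Zeros had been replaced by small values in 7124 genes. They were read as 0 in the recovered reads only. The RPKM values behind the main fits and the averages, those of silent receptor genes and other Pax genes among them, kept the small values. The other RPKM values, as deposited, were whole multiples of 1 read in 100% of the genes with reads, within 0.001, so reads were recovered, and 80.3% of lengths equalled those of GENCODE M21 on GRCm38. For 1 kb of gene, 3 reads were worth 0.157 to 0.181 RPKM in old and 0.403 to 0.959 RPKM in young libraries, and such limits cover counting error only. Old was compared with young on log2(RPKM + 1) by limma 3.58.1 in R 4.3.3, with a trended prior variance and Benjamini-Hochberg adjustment, a scale that understates the change of low genes. It was fitted to all genes whose mean reached 5 RPKM, or 1 RPKM for lower members, on both scalings, and checked on simulated data. Alternatives were other filters and pseudocounts, no trend, limma-voom on the recovered reads, thinned reads, left-out libraries and a replicate block.

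The members and lists were chosen with earlier results of these data known. Named were all members, tested Mef2, Eya, E protein and Id genes, the 2 called genes with the largest change in each direction of the other lists, and the 3 genes most correlated with each of 4 members. Bhlhe40, Zeb1, Zeb2, Megf10, Jsrp1, Tnnt1, Musk, Cdh15, Sdc4 and Cxcr4 were added after their values were seen. The ERCC spike-in named in the labels is not analysed here, and some items are not reported here.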

Additional observations from a re-analysis of the deposited data

Results flagged for a closer look

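In 4 young groups on library totals 1 library stood apart from the other 3, by a gap that took most of the group's range. For Pax3 this was young library 2, with 4.23 RPKM against 2.24 to 2.54 RPKM in the other young libraries, a gap of 0.851 of the range. For Eya1 it was young library 2 with 7.30 RPKM (0.931 of the range), and for Msc young library 2 with 64.1 RPKM (0.842). For Myf5 it was young library 3, which was low with 121 RPKM (0.853). Each exceeds the limit of Dixon's test for groups of 4. In all, 54 groups were looked at, and chance alone marks about 5% of them. Young library 2 has the fewest reads in genes, 1.91 M, and the highest ratio of deposited library size to reads, 1.64.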

How the results depend on the processing

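Myod1 and Myog kept their direction and their call on both scales in every alternative run. Without single libraries, 2 to 5 members were called on library totals and 4 to 5 on the deposited scale. Other alternatives gave 2 members (minimum of 10 RPKM) and 3 (without young libraries 1 and 2) on library totals, and 3 (minimum of 10 RPKM) on the deposited scale, where members below 10 RPKM were not tested. The lower genes on library totals numbered 722, but 2479 with the minimum at 1 RPKM, 386 with it at 10 RPKM and 10149 with no filter (492 to 810 without single libraries). On the deposited scale they numbered 64, but 592, 24 and 6908 at the same filters and 122 without young libraries 1 and 2 (44 to 129 without single libraries, 129 without young library 2). Near 0 the sign changed. On library totals Eya1 was 0.036 with thinned reads and 0.064 without both shallow young libraries (1 and 2), and it spanned -0.086 to 0.063 when single libraries were left out. Msc was 0.032 and 0.071 in these fits and spanned -0.25 to 0.047. Eya3 was 0.045 without the shallow pair and spanned -0.20 to 0.017. On the deposited scale Pax7 spanned -0.18 to 0.14 when single libraries were left out, with positive values without old library 2, old library 4 and young library 3. Also there, Heyl was -0.0089 with thinned reads and -0.44 without the shallow pair, and it spanned -0.32 to 0.28. Bhlhe40 was -0.16 without that pair and spanned -0.16 to 0.17. Megf10 spanned -0.47 to 0.015 and Acta2 -0.27 to 0.10 without single libraries. The cause was not tested. Replicate numbers did not pair the samples: each animal is separate, and deviations of same-numbered libraries correlated at -0.17, -0.06, 0.39 and -0.24. With the replicate block 636 genes were higher and 662 lower on library totals, 4 members were called on each scale, and the calls lost among the genes named here were Six4 (adjusted p = 0.0503) and Tcf12 (0.102) on library totals and Msc (0.0502), Eya3 (0.0595) and Tcf4 (0.0602) on the deposited scale. The young values of Myf6 rest on as few as 10 reads, and its call was lost with thinned reads (-0.79, adjusted p = 0.157). Myog kept its call with thinned reads (-2.15, adjusted p = 0.0049). Thinning does not separate depth from age, and the part of depth in either gene was not tested.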
